A study of Mus musculus with 2 samples.

Results

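The expression of 9 erythroid genes was followed in hematopoietic stem cells (HSCs) separated by expression of SATB1, a chromatin-organizing protein. They are the transcription factor genes Gata1, Gfi1b and Klf1, the erythropoietin receptor gene Epor, the adult globin genes Hba-a1, Hbb-b1 and Hbb-b2, and the carbonic anhydrase genes Car1 and Car2. Members were taken by gene symbol, and all 9 had a row among the 23210 genes listed in both expression files. The cells were mouse LSK cells (lineage-negative, Sca-1-positive, Kit-positive marrow cells) that were CD150-positive and Flt3-negative. They were sorted on the Satb1-Tomato reporter into a SATB1-negative and a SATB1-positive fraction, each with 1 RNA sequencing library. These are called the negative and the positive library below. The sources used here give no strain, age, treatment or number of animals for either, and the groups share the reporter. With 1 library per group there is no replicate check, so no p-value is given.

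Erythroid cells arise from stem cells through progenitors shared with megakaryocytes. GATA1 is the zinc finger factor that drives erythroid and megakaryocytic genes and is also used in mast cells, basophils and eosinophils. KLF1 binds CACCC motifs and activates the adult beta globin gene. GFI1B is a repressor required for both red cells and platelets. Erythropoietin, through its receptor, keeps committed erythroid progenitors alive, and the globins and carbonic anhydrase I are products of the cells that follow. Low transcription of lineage genes in multipotent cells is often called lineage priming.

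Values are FPKM, fragments scaled by transcript length and by the mapped total, so levels of different genes can be compared per length. The ratio used throughout is log2((SATB1-positive FPKM + 1)/(SATB1-negative FPKM + 1)), in which a negative value means lower in the positive library. To pass the rule of size a gene needed a ratio of 1 or more, or of -1 or less, with 5 FPKM or more in its higher library. Ranges in brackets after a level or a fold are 95% intervals for counting error alone. They rest on fragment numbers estimated from the FPKM, from the length of the shortest annotated transcript, and from depths of about 34920000 (negative) and 26680000 (positive) fragments. They cover neither the spread between animals or sorts nor copies made by PCR. Satb1 was at 2.37 FPKM in the negative library and 8.26 FPKM in the positive library, the direction of the sort. Over the 9308 genes that reached 5 FPKM in a library, the median ratio was -0.00017 and the median absolute ratio 0.16.

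The erythroid genes did not share a direction. Of the 9 members, 4 were higher in the positive library (Gata1, Klf1, Hbb-b1 and Car1) and 5 were lower (Gfi1b, Epor, Hba-a1, Hbb-b2 and Car2). The rule of size was passed by 1 member as higher, Hbb-b1, and by 0 as lower. Over all 9308 genes, 1.31% passed as higher and 0.688% as lower. All 9 members had at least 1 FPKM in both libraries and at least 5 FPKM in one of them, so no member was lost to the filter on low values. Their median ratio was -0.30, between -0.61 for Hba-a1 and 1.90 for Hbb-b1. It became -0.054 when the adult alpha globin rows, and likewise the adult beta globin rows, were added together. The median absolute ratio of the members was 0.56, and each of the 9 lay farther from 0 than the median gene. The members were chosen with earlier results of these data known. These distances, and the shares of genes given below for single members, are therefore descriptions only. In these bulk libraries, fewer cells of a type and less RNA per cell cannot be told apart.

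**Figure D1:**
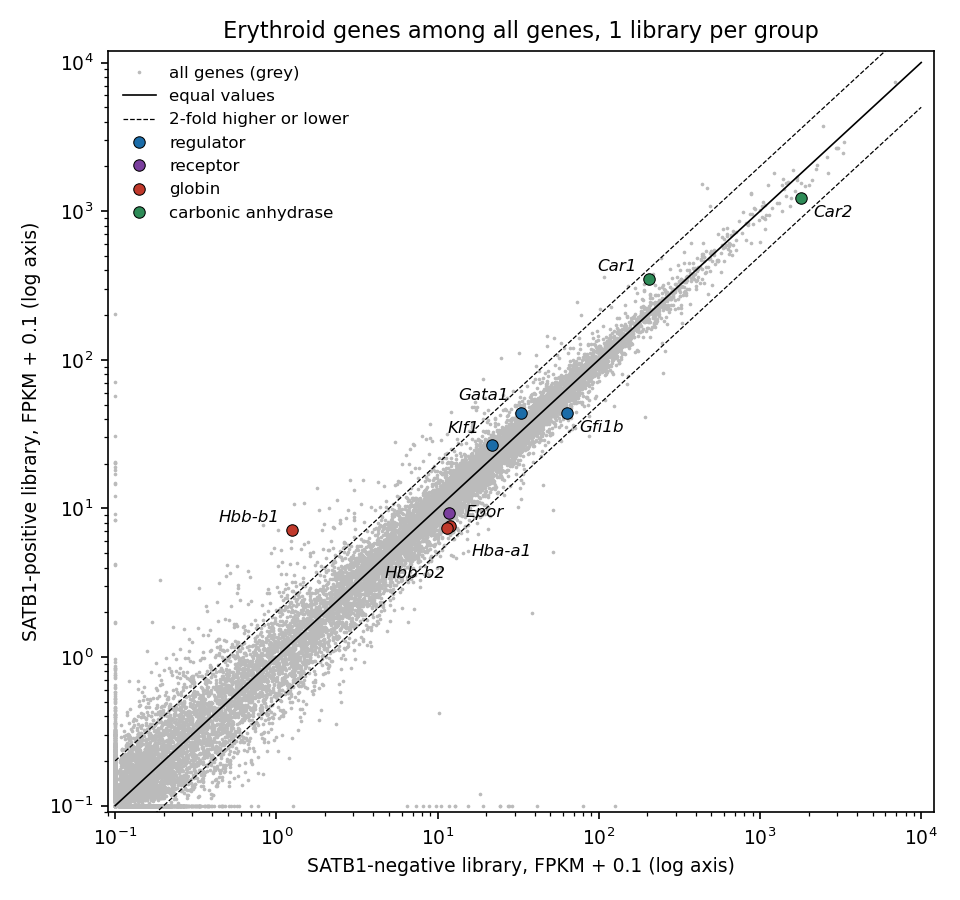
FPKM + 0.1 of every gene in the negative library (x axis, log scale) against the positive library (y axis, log scale), with the 9 erythroid genes coloured by role. Hbb-b1 is the only one of the 9 outside the dashed 2-fold lines; Car1 lies above and Car2 below the line of equal values.

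The levels in the negative library ran from Car2 at 1799 FPKM to Hbb-b1 at 1.15 FPKM. There the order was Car2, Car1, Gfi1b, Gata1, Klf1, Hba-a1, Epor, Hbb-b2 and Hbb-b1. The counting intervals of Hba-a1, Epor and Hbb-b2 overlapped, so these 3 cannot be ordered, while every other pair of neighbours was separated. In the positive library Gata1 and Gfi1b stood level, at 44.0 FPKM (42.1 to 46.0) and 43.7 FPKM (41.7 to 45.8). Below Klf1 came Epor at 9.26 FPKM (8.35 to 10.2) and the 3 globin rows, whose intervals overlapped each other and that of Epor. All 3 regulators were therefore present at higher levels than any globin in either library.

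Gata1, the master regulator of the lineage, was at 32.98 FPKM (31.5 to 34.5) in the negative library and 44.0 FPKM in the positive library. The SATB1-positive value was 1.33-fold higher (1.25 to 1.42), on about 1954 and 1993 fragments. Gata1 is on chromosome X at 7959260 to 7978071 (mm10), minus strand. Its ratio of 0.41 was reached or exceeded by 7.69% of the 9308 genes. Klf1, which acts after Gata1 in the erythroid branch, had the same direction. It was at 21.6 FPKM (20.3 to 23.0) and 26.4 FPKM (24.8 to 28.2), 1.22-fold higher (1.12 to 1.34) in the positive library. The gene is on chromosome 8 at 84901928 to 84905291, plus strand, and its ratio of 0.28 was reached or exceeded by 13.9% of genes.

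Gfi1b had the opposite direction. It was at 63.0 FPKM (60.9 to 65.2) in the negative library and 43.7 FPKM in the positive library, 1.44-fold lower (1.36 to 1.53) in the latter. A ratio at or below its -0.52 was held by 4.05% of the 9308 genes. Gfi1b transcripts thus outnumbered Gata1 transcripts 1.91 to 1 per length in the negative library, and the quotient was 0.993 in the positive library. The quotient of Gata1 over Klf1 moved less, from 1.52 to 1.66. Gfi1b occupies chromosome 2 at 28609450 to 28621982 on the minus strand.

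Epor, the receptor for erythropoietin, was at 11.6 FPKM (10.7 to 12.5) and 9.26 FPKM, 1.25-fold lower (1.10 to 1.43) in the positive library. Its ratio was -0.30, and 11.6% of genes had one as low or lower. The gene is on chromosome 9 at 21958897 to 21963506, minus strand. None of Gata1, Klf1, Gfi1b and Epor shared a 50-base word with the annotated transcripts of another gene, and none had exons overlapping those of another gene. Gata1 and Klf1 on one side, and Gfi1b and Epor on the other, therefore differed in direction by more than counting error, with no measure of the spread between sorts.

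**Figure D2:**
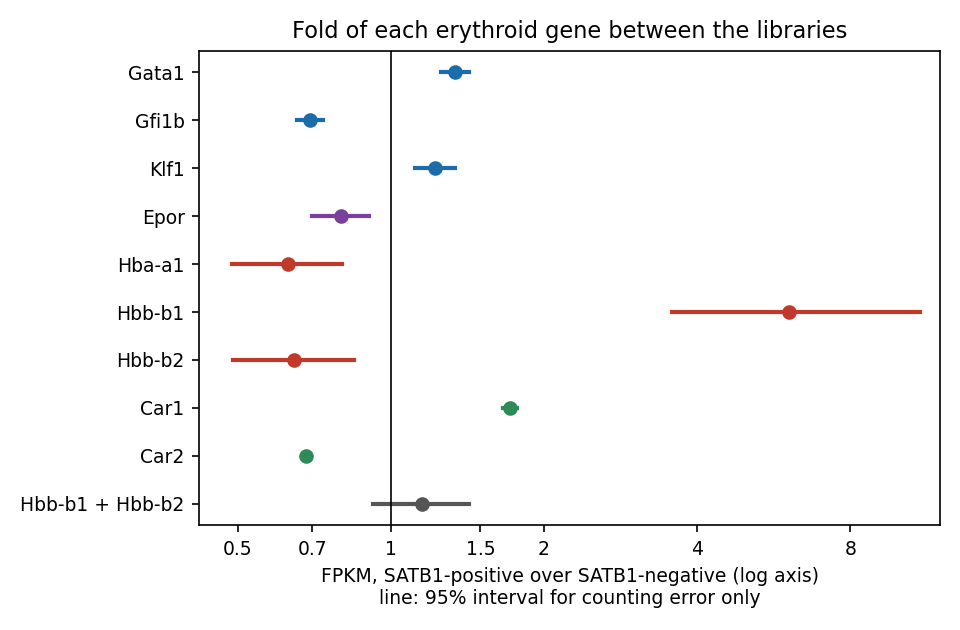
Fold of FPKM, SATB1-positive over SATB1-negative (x axis, log scale), for each erythroid gene and for the summed pair Hbb-b1 + Hbb-b2; points are folds and lines are 95% intervals for counting error only. Each of the 9 genes has an interval clear of 1, on either side, whereas the interval of the summed pair includes 1.

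The promoters of these genes are where GATA factors and KLF1 are known to act, and 6 of them are shown so that the regulators can be read against their known kind of target. Each run is the 250 bases before the annotated start, 5′ to 3′ on the gene's strand, from RefSeq (GRCm38.p6, the mm10 assembly). Capitals mark GATA words (the word AGATAA, the word TGATAA, the word AGATAG and the word TGATAG) and CACCC words (the word CCACCC and the word ACACCC) found on either strand (a word on the other strand appears as its reverse complement); no GATA word overlapped a CACCC word.
Klf1 (chr8:84901732-84901981, plus strand): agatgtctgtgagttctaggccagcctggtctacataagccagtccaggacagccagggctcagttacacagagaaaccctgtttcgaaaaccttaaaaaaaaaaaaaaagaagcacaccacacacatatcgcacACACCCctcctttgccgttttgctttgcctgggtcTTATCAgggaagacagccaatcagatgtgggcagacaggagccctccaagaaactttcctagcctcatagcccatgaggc
Gfi1b (chr2:28621983-28622232, minus strand): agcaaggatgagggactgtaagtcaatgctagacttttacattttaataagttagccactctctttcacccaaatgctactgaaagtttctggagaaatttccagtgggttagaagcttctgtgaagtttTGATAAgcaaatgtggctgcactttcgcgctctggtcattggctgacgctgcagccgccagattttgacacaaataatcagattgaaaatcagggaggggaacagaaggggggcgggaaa
Epor (chr9:21963577-21963826, minus strand): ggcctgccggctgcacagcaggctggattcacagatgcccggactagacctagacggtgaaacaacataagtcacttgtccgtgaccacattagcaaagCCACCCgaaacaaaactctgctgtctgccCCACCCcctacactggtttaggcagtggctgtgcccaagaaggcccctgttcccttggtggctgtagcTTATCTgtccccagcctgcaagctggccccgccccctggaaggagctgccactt
Hba-a1 (chr11:32283422-32283671, plus strand): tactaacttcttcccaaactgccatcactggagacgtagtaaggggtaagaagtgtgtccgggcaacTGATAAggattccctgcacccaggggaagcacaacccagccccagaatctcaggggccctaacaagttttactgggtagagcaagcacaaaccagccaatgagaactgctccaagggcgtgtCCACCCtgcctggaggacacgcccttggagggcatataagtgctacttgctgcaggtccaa
Hbb-bs (chr7:103827929-103828178, minus strand): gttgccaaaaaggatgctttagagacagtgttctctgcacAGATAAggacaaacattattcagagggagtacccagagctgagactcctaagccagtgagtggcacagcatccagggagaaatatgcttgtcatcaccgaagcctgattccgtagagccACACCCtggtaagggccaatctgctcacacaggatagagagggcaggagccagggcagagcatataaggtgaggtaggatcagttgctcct
Hbb-bt (chr7:103813924-103814173, minus strand): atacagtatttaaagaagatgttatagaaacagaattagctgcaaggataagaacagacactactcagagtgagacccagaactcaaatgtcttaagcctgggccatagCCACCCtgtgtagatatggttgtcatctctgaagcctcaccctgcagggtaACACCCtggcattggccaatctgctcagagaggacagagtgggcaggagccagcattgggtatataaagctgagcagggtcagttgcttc

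A GATA word was found in the windows of Klf1, Gfi1b, Epor, Hba-a1 and Hbb-bs, and in 26.5% of all 32851 RefSeq windows of the same length. A CACCC word was found in Klf1, Epor, Hba-a1, Hbb-bs and Hbb-bt, against 37.6% of all windows. The Gata1 window, not printed, held 2 CACCC words and 0 GATA words. A word match is a description of the letters and not evidence of binding. The Hba-a1 window also carried a TATAAG word and a CCAAT word, as did that of Hbb-bs. The Hbb-bt window held a TATAAA word and, counting either strand, 3 CCAAT words. Those of Klf1 and Gfi1b each held a CCAAT word, on either strand, and no TATA word. The word TATAAG or the word TATAAA was found in 17.0% and the word CCAAT in 33.8% of all windows, on either strand. Of the 9 members, 5 matched the promoter table by symbol. Hbb-bs and Hbb-bt are the names under which the reference carries the adult beta globin genes, whereas the expression files list Hbb-b1 and Hbb-b2. The sources used here do not say which locus stood behind each of these rows.

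Globin transcripts were present at low levels in both libraries. Hba-a1, the adult alpha globin, was at 11.9 FPKM (10.3 to 13.6) in the negative library and 7.47 FPKM (6.06 to 9.10) in the positive library, 1.59-fold lower (1.25 to 2.05) on about 205 and 98 fragments. Hbb-b2 was close to it in both libraries, at 11.3 FPKM (9.62 to 13.1) and 7.28 FPKM (5.79 to 9.03), 1.55-fold lower (1.18 to 2.04). Hba-a1 over Hbb-b2 was 1.06 in the negative library and 1.03 in the positive library. Hbb-b1 went the other way, from 1.15 FPKM (0.672 to 1.85) to 7.01 FPKM (5.55 to 8.73), a 6.08-fold difference (3.57 to 11.0) on about 17 and 79 fragments. Only 0.322% of the 9308 genes had a ratio as high. With a pseudocount of 5 in place of 1 its ratio was 0.96, under the rule of size.

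Hbb-b1 is 1 of a pair of adult beta globin rows, and the pair as a whole differed far less. Hbb-bs and Hbb-bt, the adult beta globin genes of the reference, have near-identical coding sequences. Whether the same holds for the Hbb-b1 and Hbb-b2 rows could not be settled. Added together, Hbb-b1 and Hbb-b2 held 12.4 FPKM in the negative library and 14.3 FPKM in the positive library. That is 1.15-fold with an interval that includes 1 (0.921 to 1.42), and a ratio of 0.19 that does not pass the rule of size. What differed was the division: Hbb-b1 took 9.28% of the pair in the negative library and 49.1% in the positive library. The counting interval of Hbb-b1 does not cover error in how fragments were divided between the rows. The alpha pair gave no such division, because Hba-a2 was listed at 0.0150 FPKM in the negative library and 0.0149 FPKM in the positive library. These values amount to 0.182 and 0.138 of a fragment, less than a single fragment in each library.

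**Figure D3:**
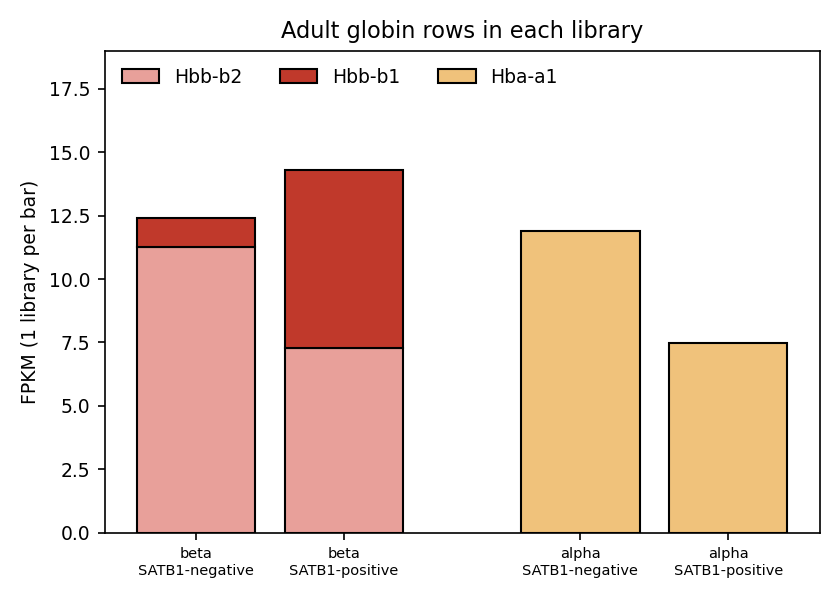
FPKM (y axis, from 0) of the adult globin rows in each library, 1 library per bar, with Hbb-b1 stacked on Hbb-b2. The beta totals are 12.4 and 14.3 FPKM although the share of Hbb-b1 differs, and the alpha row Hba-a1 is 11.9 and 7.47 FPKM.

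How alike the copies of the reference are can be read from their coding sequences. The coding sequences of Hba-a1 and Hba-a2 (chromosome 11, 32283511 to 32284465 and 32296489 to 32297298, plus strand) differed at 1 of 429 bases, C381T, counted from the A of the start codon with Hba-a1 first. Those of Hbb-bs and Hbb-bt (chromosome 7, 103826534 to 103828096 and 103812524 to 103813996, minus strand) differed at 1 of 444 bases, C417T with Hbb-bs first. The stretches around these bases are shown because they are the only coding positions at which a read can be told apart; the differing base is in capitals.
Hba-a1 (coding bases 341 to 420): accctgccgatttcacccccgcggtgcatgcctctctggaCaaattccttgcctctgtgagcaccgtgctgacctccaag
Hba-a2 (coding bases 341 to 420): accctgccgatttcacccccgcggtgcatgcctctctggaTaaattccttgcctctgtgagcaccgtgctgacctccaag
Hbb-bs (coding bases 365 to 444): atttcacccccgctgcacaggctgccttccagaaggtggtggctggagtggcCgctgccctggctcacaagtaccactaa
Hbb-bt (coding bases 365 to 444): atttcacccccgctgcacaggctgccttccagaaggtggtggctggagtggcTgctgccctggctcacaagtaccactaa

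The whole transcripts of the copies were less alike. Of the 50-base words of the Hba-a1 transcript, 67.5% recur in Hba-a2, and of those of Hbb-bs, 65.8% recur in Hbb-bt. The promoter windows of the beta pair printed above also differ, with a GATA word in that of Hbb-bs alone. Embryonic and other globin rows added nothing. Of the list of other globins and the globin chaperone, 7 of 12 genes had a row, 0 reached 1 FPKM and 4 were listed at 0 in both libraries.

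The 3 globin members made up 0.00488% of the summed FPKM in the negative library and 0.00438% in the positive library. Among markers of late erythroblasts and red cells, 13 of 15 genes had a row and 10 reached 1 FPKM, with summed levels of 90.7 and 106 FPKM. None of the 13 was at 0, and 0 passed the rule of size in either direction, while 3 (Slc4a1, Alas2 and Trim10) were under 1 FPKM in both libraries. Of the 10, 5 had a ratio above 0 and 5 below, with a median of 0.062. The highest ratios were those of Kel (0.87), Ermap (0.77) and Tspo2 (0.70), and the lowest was that of Epb4.2 (-0.39). Slc4a1, the band 3 anion exchanger of the red cell membrane, was at 0.702 and 0.723 FPKM, and Alas2, the erythroid enzyme that starts heme synthesis, at 0.748 and 0.8003 FPKM; these genes were chosen after their values were seen. Hemgn and Ermap had the highest means of the list, Hemgn at 19.9 and 18.9 FPKM and Ermap at 11.3 and 20.0 FPKM.

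The carbonic anhydrases were by far the most abundant members, and they had opposite directions. Both catalyse the hydration of carbon dioxide; carbonic anhydrase I is a major red cell protein and carbonic anhydrase II is made more widely. Car2 was at 1799 FPKM (1788 to 1810) in the negative library and 1223 FPKM (1213 to 1234) in the positive library, 1.47-fold lower (1.46 to 1.49). It ranked 15 of 23210 genes in the negative library and 33 in the positive library, with 0.361% and 0.246% of the summed FPKM. Its ratio of -0.56 was matched or undercut by 3.42% of the 9308 genes.

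Car1 was at 204 FPKM (199 to 209) and 350 FPKM (343 to 357), 1.71-fold higher (1.66 to 1.77) in the positive library. It moved from rank 350 to rank 164, and 2.11% of genes had a ratio as high as its 0.77. Car2 over Car1 was 8.81 in the negative library and 3.50 in the positive library. The 2 genes lie close together on chromosome 3, Car1 on the minus strand at 14766216 to 14808368 and Car2 on the plus strand at 14886273 to 14900770. Their coding sequences are 62.1% identical and Car2 shares no 50-base word with another gene. In Car1, 14.7% of the words recur in the annotated pseudogene Gm5843, and how far this changed the Car1 values was not tested.

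No other carbonic anhydrase came near these levels. Of 14 further genes of the family, 6 reached 1 FPKM in either library, 0 passed the rule of size and their median ratio was -0.057. Among these 6, Car3 was the most abundant at 8.42 and 7.26 FPKM, with the lowest ratio (-0.19), and Car4 had the highest (0.081) at 2.205 and 2.39 FPKM.

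The partners and neighbours of the regulators were read by the same rule of size, which 1.31% of the 9308 genes passed as higher and 0.688% as lower. Of 23 other erythroid transcription factors and cofactors, 8 had a ratio above 0 and 15 below, with a median of -0.085 beside -0.0059 over all 11873 genes at 1 FPKM or more in either library. The rule of size was passed by 1 as higher and 0 as lower. That gene was Gfi1, the paralog of Gfi1b used in stem cells and granulocytes, at 5.37 and 14.4 FPKM, 2.68-fold higher (2.39 to 3.002); its ratio was 1.27, and 0.90 with a pseudocount of 5, under the rule. Gfi1 and Gfi1b, 2 related repressors, therefore had opposite directions. The next genes were chosen after their values were seen. Gata2, which precedes Gata1 in stem and progenitor cells, was at 153 and 137 FPKM, so that Gata2 over Gata1 was 4.63 in the negative library and 3.12 in the positive library. The GATA1 cofactor gene Zfpm1 (FOG1) was at 50.4 and 57.01 FPKM. Tal1, which binds with GATA1 in erythroid complexes, was at 18.6 and 10.7 FPKM, and its partner Lmo2 at 671 and 508 FPKM.

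Genes of erythropoietin receptor signalling were centred on 0. Of 16 with at least 1 FPKM in either library, 9 had a ratio above 0 and 7 below, 0 passed the rule of size and the median was 0.026. Ptpn6, the phosphatase SHP-1 that damps the receptor, was the most abundant at 118 and 108 FPKM. Irs2, an insulin receptor substrate, had the highest ratio (0.66) at 10.6 and 17.3 FPKM. Cish, a feedback inhibitor induced by STAT5, had the lowest (-0.66) at 58.2 and 36.6 FPKM.

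Erythroid membrane and surface genes had a median ratio of 0.17 over the 25 with at least 1 FPKM in either library, of 30 with a row. Of these 25, 16 were above 0 and 9 below. The rule of size was passed by 0 as higher and by 1 as lower, Art4, which carries the Dombrock blood group, at 32.3 and 13.7 FPKM, 2.37-fold lower (2.19 to 2.56). The following members were chosen after their values were seen. Mfsd2b, a sphingosine-1-phosphate exporter of red cells and platelets, was at 20.2 and 37.8 FPKM, and Kel, a blood group antigen gene, at 2.51 and 5.44 FPKM. Rhag, the Rh-associated glycoprotein, was at 11.2 and 10.8 FPKM, inside counting error. Of 14 genes for heme synthesis and iron uptake at 1 FPKM or more, 11 were above 0 and 3 below, with a median of 0.14 and 0 past the rule. Alas1, the form of the first enzyme used by most tissues, had the highest ratio (0.88) at 35.6 and 66.4 FPKM, and Urod the lowest (-0.15) at 59.3 and 53.4 FPKM.

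**Figure D4:**
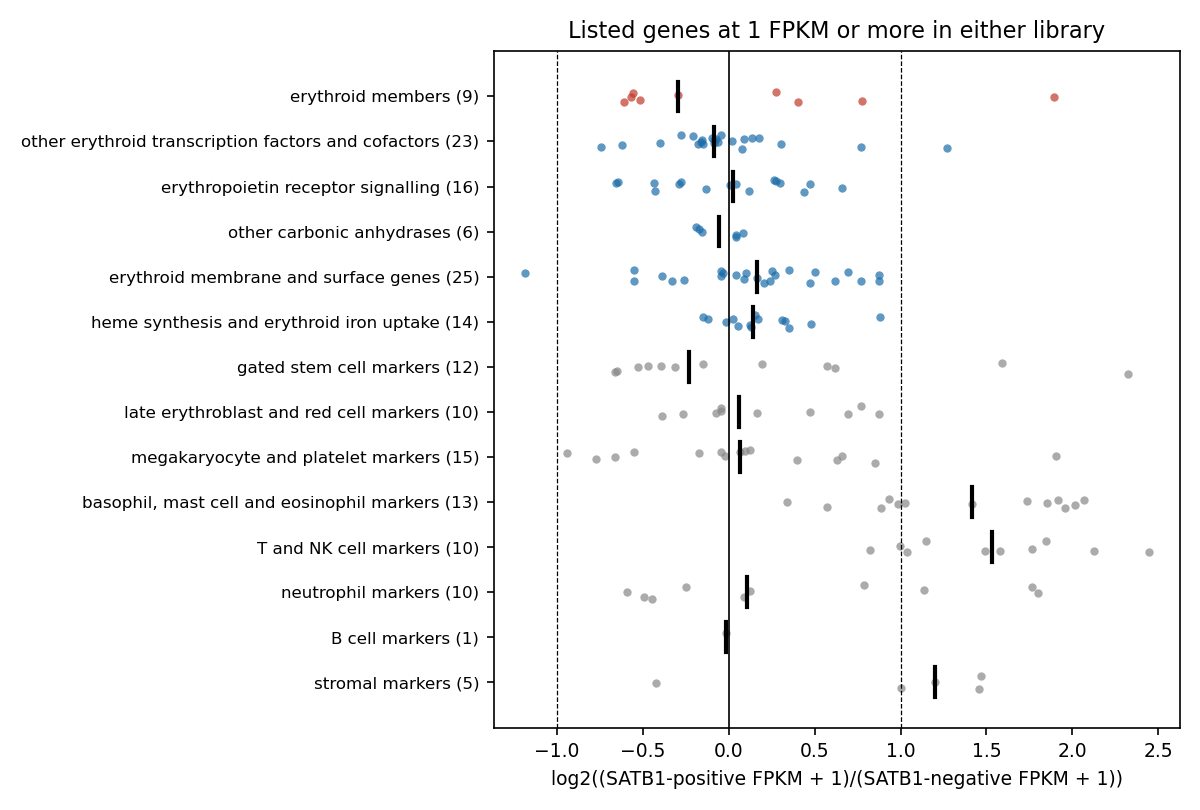
Log2 ratio (x axis) of listed genes that reached 1 FPKM in a library; each point is a gene, black bars are list medians, dashed lines mark -1 and 1, and the number of genes follows each list's name. The 9 erythroid members spread from -0.61 to 1.90 with a median of -0.30. The other erythroid pathway lists are centred within 0.17 of 0, whereas the basophil, mast cell and eosinophil markers have a median of 1.42.

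Markers of other cells that use the same genes were read alongside. Basophils, mast cells and eosinophils also express Gata1, and of the 18 markers of these cells 13 reached 1 FPKM and all 13 had a ratio above 0, with 8 past the rule of size as higher; 11 of the 13 reached 1 FPKM in both libraries. Their summed level was 1478 FPKM in the negative library and 2581 FPKM in the positive library, with 1 of 18, Mcpt4, at 0 in both. The most abundant were Prg2 at 1222 and 1815 FPKM and Prss34 at 107 and 360 FPKM. Megakaryocytes also express Gata1 and Gfi1b, and of their 16 markers 15 reached 1 FPKM, 8 of these above 0 and 7 below, with 1 past the rule as higher. Their summed level was 552 and 463 FPKM with none at 0, and Itga2b, an integrin subunit of platelets, was among the most abundant at 62.8 and 67.3 FPKM. The part of either cell type in the values of Gata1, Klf1, Gfi1b and Car1 was not tested.

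The genes of the positive gates were present, Kit at 318 and 286 FPKM, Ly6a (Sca-1) at 64.5 and 73.9 FPKM and Slamf1 (CD150) at 15.97 and 11.9 FPKM. Flt3, whose protein was gated out, was nevertheless at 17.3 and 27.1 FPKM. Cd48 and Il7r, genes of later progenitors and lymphoid cells, were at 47.6 and 145 FPKM and at 0.727 and 7.64 FPKM, both past the rule of size as higher. The choice of these 6 genes was made with their values known. Rhag and Alas2 are examples of genes that stand in more than 1 list. Markers of other blood and stromal cells were also listed, to be read beside the 1.31% of the 9308 genes past the rule as higher. T and NK cell markers summed to 163 and 374 FPKM (10 of 10 above 0 but only 5 at 1 FPKM in both libraries, 5 past the rule as higher; Nkg7 at 152 and 313 FPKM, Cd3e at 2.76 and 15.4 FPKM). Neutrophil lineage markers summed to 1784 and 3593 FPKM (6 of 10 above 0, 3 past the rule). The higher sum came from primary granule genes, which myeloid progenitors also express, with Mpo at 437 and 1528 FPKM and Elane at 490 and 1081 FPKM. Genes of later neutrophil stages had ratios below 0 in the same list, with Ltf at 66.7 and 47.1 FPKM, Camp at 84.8 and 56.0 FPKM, Ngp at 236 and 198 FPKM and S100a8 at 117 and 85.5 FPKM, while S100a9 was at 95.9 and 105 FPKM and Mmp9 at 6.95 and 7.45 FPKM. Stromal markers summed to 37.4 and 92.6 FPKM, with 4 of 6 past the rule as higher. Col1a1 was at 16.8 and 48.3 FPKM and Col1a2 at 7.52 and 18.6 FPKM. Of the 5 stromal markers that reached 1 FPKM, 4 had a ratio above 0 and 1 below. The latter was Cxcl12, at 4.19 and 2.87 FPKM, while Lepr stayed under 1 FPKM at 0.126 and 0.189 FPKM. B cell markers summed to 34.9 and 35.1 FPKM, nearly all from Cd79b at 34.3 and 33.9 FPKM, with Cd79a at 0.205 and 0.5998 FPKM. The part of these cells in the erythroid values was not tested.

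Among the listed erythroid genes, those nearest to a member in level and ratio together were named by the distance in log2(FPKM + 1) over the 2 libraries. Hba-a1 and Hbb-b2 were each other's nearest gene (0.079), Klf1 was nearest to Tfrc, the transferrin receptor gene (0.10), and Epor to Xk (0.086). Gata1 was nearest to Pim1 (0.12), Car1 to Hmgb2 (0.15) and Gfi1b to Cish (0.27). Hbb-b1 (0.77 from Kel) and Car2 (1.90 from Lmo2) had no near neighbour. With 2 libraries such a likeness holds a level and a single ratio only.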

How the data were processed

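RNA was measured in 2 libraries, 1 per group. Per the file headers, the authors deposited FPKM values, listed by gene symbol. TopHat2 2.0.13, Bowtie2 2.2.3, SAMtools 0.1.19, Cufflinks 2.2.1 and build mm10 are named in the submitters' processing notes; the sources used here give no settings, annotation or strand of counting. Total RNA was taken with a miRNeasy kit and libraries with the Clontech SMARTer Stranded kit, per the labels' protocols. How fragments that match more than 1 gene were divided is therefore not known, which bears on the globin copies. Of 23235 rows, 25 whose symbol had become a date were left out.

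Since the files hold no counts, depth came from the low values of single-exon, single-transcript genes (GENCODE M21), which step by 1 fragment. With an offset of 205 bases, 59.5% of 200 values (SATB1-negative) and 62.9% of 210 (SATB1-positive) were whole within 0.05 fragments, against 10% at a random depth; depth and offset were searched for this share. A fragment over 1 kb is worth 0.0286 and 0.0375 FPKM. Levels have exact Poisson intervals, and folds exact (Clopper-Pearson) intervals on the split of estimated fragments. For the Hbb rows the length of Hbb-bs was used. Depth search and rule of size were tested on simulated data. Alternatives were pseudocounts, scalings, minimums, a 4-fold threshold and summed globin copies. Named genes were all members and, per pathway list, those past the rule of size, else the most abundant, highest and lowest; per marker list, the 2 most abundant; and the nearest listed gene of each member; some genes that this rule names are not reported here. Members and lists were chosen with earlier results of these data known. Analyses used Python 3.11.15, pandas 2.3.3, SciPy 1.17.1 and Biopython 1.88.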

Additional observations from a re-analysis of the deposited data

How the results depend on the processing

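All 45 member ratios recomputed under pseudocounts of 0.1 and 5 and the 3 scalings kept their sign. This outcome was fixed in advance and is no check of the directions. A pseudocount added to both values cannot reverse a sign, and the scaling factors, 0.984 to 1.002, lay too near 1 to do so. The median ratio of all genes at 1 FPKM or more was -0.0059 as deposited and -0.027 at its farthest, under upper quartile scaling. The count of members past the rule of size as higher fell from 1 to 0 with a pseudocount of 5 (Hbb-b1 ratio 0.96), with a minimum of 10 FPKM, with a 4-fold threshold, and with globin copies summed; it was 1 under the other alternatives run. Among listed genes past the rule, Gfi1 and Art4 were put through the pseudocounts and scalings, a choice made after seeing the data. Gfi1 fell to 0.90 with a pseudocount of 5. Art4 stayed at or below -1 throughout, though only just with a pseudocount of 5 (-1.0006). The count as lower was 0 under every alternative run. The median ratio of the members was -0.054 with globin copies summed. Otherwise it lay between -0.32 and -0.22. The ratio of the summed beta pair lay between 0.15 and 0.20. No paired analysis was possible because there is 1 library per group, and leaving out a replicate could not be run for the same reason. About 17 fragments lie behind the lower Hbb-b1 value.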
